A study of Mus musculus with 6 samples.

Results

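The genes described here encode proteins of the dense-core secretory granule and the enzymes that process prohormones inside it. The list held 9 genes: the granins Chga, Chgb, Scg2 and Scg3, the enzymes Pcsk1, Pcsk2 and Cpe, the convertase chaperone Scg5, and Vgf. The members were chosen with their measured levels on Day 0, Day 7 and Day 10 in view, including a peak of Scg3 on Day 7. Their changes between days are therefore a description and carry no test. Probesets annotated with a member's symbol were found for 8 of the 9 genes, and these 8 genes held 91 of the 228090 probesets of the table. Vgf was not analysed here.

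The arrays were hybridised with total RNA of P19 cells, a mouse embryonic carcinoma line that becomes neurons and later glia after aggregation with retinoic acid (RA). Undifferentiated, untreated cells gave the Day 0 arrays. Cells exposed as aggregates to 1 µM RA for 4 days and then cultured further gave the arrays of Day 7, labelled neuronal, and of Day 10, labelled early glial. Each day had 2 arrays, described by the submitters as biological duplicates, and all 6 arrays came from 1 cell line with no further genetic change named in the labels. The cultures were not sorted, so a lower level can reflect fewer cells of a type or less RNA per cell, and these cannot be told apart.

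Neurons and endocrine cells store peptides in dense-core granules and release them on stimulation. Granins, acidic proteins that aggregate in the trans-Golgi network, load these granules together with the prohormones. Inside the granule the prohormone convertases PC1/3 (Pcsk1) and PC2 (Pcsk2) cut the precursors at basic residues, carboxypeptidase E (Cpe) trims the basic residues left at the ends, and 7B2 (Scg5) assists the maturation of PC2.

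Promoter sequence of 7 members was found in the RefSeq table (mouse build GRCm38.p6); Cpe and Vgf had no entry. The stretches below are the 120 bases before the annotated start, read 5′ to 3′ on the strand of the gene, with matches to TGACGTCA, the palindromic cAMP response element, or to its core TGACGT in capitals. Chgb, Scg2 and Pcsk1 are shown because they hold the complete element, Chga because it holds the core, and Scg3 because it holds neither in the 250 bases searched although its level moved most. They lie at chr12:102554821-102554940 (plus strand), chr2:132781522-132781641 (plus strand), chr1:79440027-79440146 (minus strand), chr13:75089737-75089856 (plus strand) and chr9:75684057-75684176 (minus strand).
Chga: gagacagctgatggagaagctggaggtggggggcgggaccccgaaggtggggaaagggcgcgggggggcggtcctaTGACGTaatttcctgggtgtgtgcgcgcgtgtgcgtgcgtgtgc
Chgb: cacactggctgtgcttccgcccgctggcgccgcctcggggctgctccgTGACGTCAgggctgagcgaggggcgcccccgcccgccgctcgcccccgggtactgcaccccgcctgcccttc
Scg2: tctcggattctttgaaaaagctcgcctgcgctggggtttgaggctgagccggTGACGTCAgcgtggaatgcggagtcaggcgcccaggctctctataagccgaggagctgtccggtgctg
Pcsk1: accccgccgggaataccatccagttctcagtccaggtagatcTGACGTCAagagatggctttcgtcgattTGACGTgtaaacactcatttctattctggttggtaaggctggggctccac
Scg3: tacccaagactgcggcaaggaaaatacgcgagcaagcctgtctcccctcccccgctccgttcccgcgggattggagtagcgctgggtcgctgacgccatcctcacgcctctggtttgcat

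Both strands of the 250 bases before the start were searched, and every complete element also counts as a match to the core. The complete element was present in 3 of the 7 promoters and the core in 5 of 7, the fifth being that of Scg5, where it began 175 bases before the start. Of the 32851 promoter windows of the same length, 1.55% held the complete element and 6.47% the core. The complete element began 72 bases before the start in Chgb, 68 in Scg2 and 78 in Pcsk1, and the core began 44 bases before the start in Chga. Pcsk2 had no match in the window. Parts of the element shorter than this core, such as TGACG, were not searched, and the printed Scg3 stretch holds TGACG. A match is a stretch of letters and was not tested as a binding site.

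The 6 arrays had median probeset intensities of 156 to 216, and 8.90% to 11.9% of probesets lay under an intensity of 16. The Day 10 arrays stood apart from each other. The median gene level was 7.93 on replicate 1, below the 8.22 to 8.51 of the other 5 arrays, and 1362 of 11384 genes differed over 2-fold between the Day 10 arrays, against 557 on Day 0 and 106 on Day 7. The summed intensity of 7 markers of undifferentiated cells was 1968 on Day 10 replicate 1 and 7611 on Day 10 replicate 2, beside 10197 and 13633 on Day 0. Replicate 1 was thus the dimmer array and replicate 2 the one nearer to Day 0 in these markers. Day 10 values are therefore given for each array, and changes after Day 7 also with either Day 10 array left out.

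The level of a gene on an array was the median of log2(intensity + 16) over its probesets, so a change is given on that scale and understates the change of a dim gene. On Day 7 the level was higher than on Day 0 for Chga, Chgb, Scg2, Scg3, Scg5, Pcsk2 and Cpe on both arrays, with mean changes of 1.23 to 3.91 (2.34-fold to 15.1-fold). The level of Pcsk1 lay between 5.54 and 5.78 on all arrays. From Day 7 to Day 10 the mean level went down for 6 of these 7 genes, and that of Scg2 did not. The plot of gene levels by array shows the 8 genes.

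**Figure D1:**
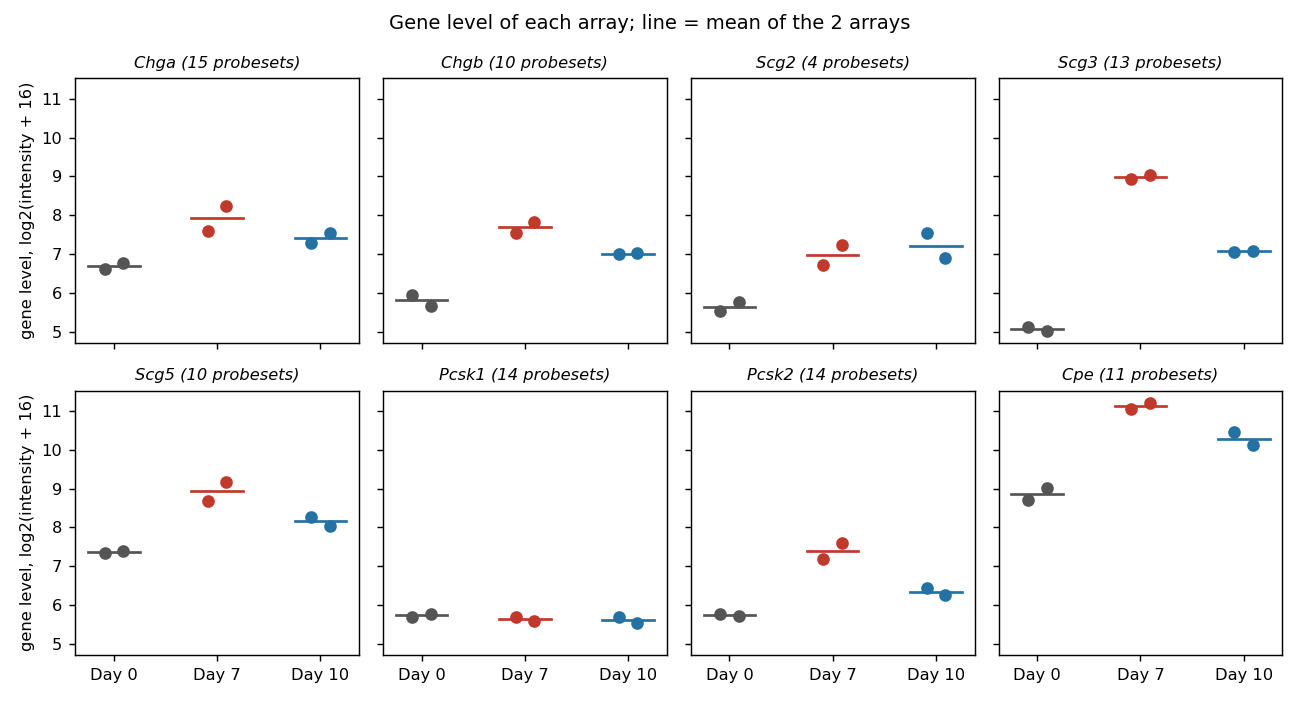
Gene level, log2(intensity + 16), on each of the 6 arrays for the 8 genes with probesets; points are arrays, coloured by day, and lines are the mean of the 2 arrays of a day. Scg3 runs from 5.03 and 5.13 on Day 0 to 8.94 and 9.05 on Day 7 and 7.06 and 7.10 on Day 10, and Pcsk1 stays between 5.54 and 5.78.

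In limma's fit over the 11384 genes at or above the 30th percentile of mean level, a gene was called at a Benjamini-Hochberg adjusted p under 0.05 and a change of at least 2-fold. The filter used the mean over all 6 arrays. Pcsk1, with a mean level of 5.67, lay under the filter level of 6.31 and was not tested. Pcsk2 (6.49) and Scg2 (6.62) lay just above it. On Day 0 alone Chgb (5.82), Scg2 (5.65), Scg3 (5.08) and Pcsk2 (5.74) lay under that level, so these genes passed through their later levels. The filter thus favoured genes that rose, and with no filter 7 of 8 genes were called on Day 7 against Day 0. On Day 7 against Day 0, 7 of the 7 genes tested were called higher and 0 lower, where 11.2% and 4.5% of all genes tested were called higher and lower (1279 and 512 genes, against 933 and 986 after the arrays were centred on the median gene). On Day 10 against Day 7, Scg3 was called lower and 0 genes higher, where 0.334% and 0.36% of all genes were called. On Day 10 against Day 0, Chgb, Scg2, Scg3 and Cpe were called higher and 0 genes lower, where 7.27% and 7.43% were called. These comparisons chose the genes, so nothing is read from the counts. Without Day 7 replicate 2 the calls fell to 4 on Day 7 against Day 0 (Chga, Scg2 and Scg5 were lost) and to 0 on Day 10 against Day 7. With either Day 10 array left out, Scg3 was again the gene called lower after Day 7, and the same 4 genes were called higher on Day 10 against Day 0.

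Chga encodes chromogranin A, the granin of chromaffin granules used widely as an endocrine marker. Its level was 6.61 and 6.78 on Day 0, 7.60 and 8.25 on Day 7, and 7.29 and 7.54 on Day 10. Both arrays of Day 7 and of Day 10 were above both of Day 0, and the Day 10 arrays lay below those of Day 7. The change was 1.23 (SE 0.32) from Day 0 to Day 7 and -0.51 from Day 7 to Day 10 (-0.38 and -0.64 with the first or the second Day 10 array left out). Its size also rested on the Day 7 arrays: it was -0.83 when replicate 1 was dropped and -0.19 when replicate 2 was dropped.

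Chgb encodes chromogranin B, a second granin of the same granules. It measured 5.96 and 5.68 on Day 0, 7.55 and 7.83 on Day 7, and 7.00 and 7.04 on Day 10. The 3 days did not overlap, with Day 7 highest. Between Day 0 and Day 7 it rose by 1.87 (SE 0.30, 3.66-fold), and the later change was -0.67 (-0.66 and -0.69 with a Day 10 array left out).

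Scg2 encodes secretogranin II, the precursor of the peptide secretoneurin. Its level was 5.53 and 5.77 on Day 0, 6.73 and 7.23 on Day 7, and 7.54 and 6.90 on Day 10. Day 0 was lowest on both arrays, while Day 7 and Day 10 overlapped. The change up to Day 7 was 1.33 (SE 0.34, 2.52-fold). The change from Day 7 to Day 10 was 0.23 (SE 0.34), and its sign rested on single arrays. It was 0.55 once Day 10 replicate 2 was left out, -0.09 when the other Day 10 array was left out, and -0.02 when the first Day 7 array was left out.

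Scg3 encodes secretogranin III, which binds cholesterol-rich granule membrane and chromogranin A. Its level was 5.13 and 5.03 on Day 0, 8.94 and 9.05 on Day 7, and 7.06 and 7.10 on Day 10. The days were far apart against the gap between duplicates, which was at most 0.10. The rise was 3.91 (SE 0.30, 15.1-fold), the largest among the 8 genes. The later change was -1.92 (3.77-fold), also the largest among them and between -1.94 and -1.90 with a Day 10 array left out, which left Day 10 above Day 0 by 3.99-fold with all arrays.

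Pcsk2 encodes PC2, the convertase that makes peptides such as α-MSH and glucagon from their precursors. It measured 5.77 and 5.72 on Day 0, 7.20 and 7.59 on Day 7, and 6.44 and 6.25 on Day 10. Day 7 was highest and Day 10 lay between the other days. The changes were 1.65 (SE 0.31, 3.15-fold) and then -1.05 (2.07-fold), or -1.14 and -0.96 as the first or the second Day 10 array was dropped.

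Scg5 encodes 7B2, the chaperone that PC2 needs to become active. It measured 7.35 and 7.39 on Day 0, 8.69 and 9.16 on Day 7, and 8.27 and 8.04 on Day 10. The order of the days was that of Pcsk2, with no overlap. The level rose by 1.56 (SE 0.31, 2.94-fold) and then changed by -0.77, or by -0.88 and -0.65 as those arrays were dropped in turn.

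Cpe encodes carboxypeptidase E, the trimming enzyme that acts after both convertases. Its level was 8.70 and 9.03 on Day 0, 11.04 and 11.21 on Day 7, and 10.45 and 10.11 on Day 10. The days did not overlap. The rise was 2.26 (SE 0.31, 4.79-fold) and the later change -0.84 (1.79-fold), which became -1.01 and -0.68 as the Day 10 arrays were dropped in turn.

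Pcsk1 encodes PC1/3, the convertase that makes the first cuts in precursors such as proopiomelanocortin. It measured 5.71 and 5.78 on Day 0, 5.70 and 5.58 on Day 7, and 5.70 and 5.54 on Day 10. The Day 0 arrays were above the others by a small margin, and Day 7 and Day 10 overlapped. Its level on these arrays was low and flat, which does not show that the transcript was absent.

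Set beside the rise to Day 7, the mean difference of Day 10 from Day 0 amounted to 36.5% of it in Pcsk2, 50.6% in Scg5, 51.0% in Scg3, 58.6% in Chga, 62.7% in Cpe, 63.9% in Chgb and 117% in Scg2. These shares are on the log2 scale, pool both arrays of each day and use the same Day 0 arrays above and below the line. Their sizes depend on the arrays kept, so their order is not read as a ranking. Dropping single Day 7 arrays moved the rise of Chga between 0.91 and 1.55, and that of Scg3 only between 3.86 and 3.97. Dropping single Day 10 arrays moved the difference from Day 0 between 0.59 and 0.85 for Chga, and between 1.98 and 2.02 for Scg3. The median gene changed by 0.10 up to Day 7 and by -0.25 after it, and the latter was -0.04 with Day 10 replicate 1 left out and -0.47 with replicate 2 left out, so values set against it shift with the array used. Relative to the median gene over all 6 arrays the changes from Day 7 to Day 10 were -0.26 for Chga, -0.43 for Chgb, 0.48 for Scg2, -1.67 for Scg3, -0.52 for Scg5, -0.80 for Pcsk2 and -0.60 for Cpe. The plot of the change before Day 7 against the change after it sets these genes in the cloud of all genes tested.

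**Figure D2:**
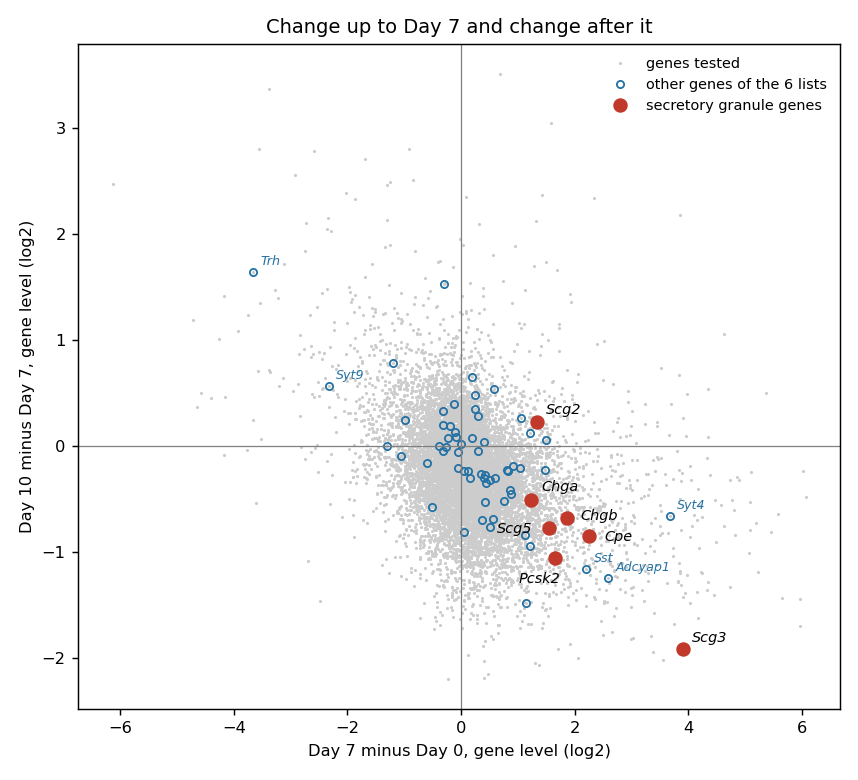
Change of gene level (log2) from Day 0 to Day 7 on the horizontal axis and from Day 7 to Day 10 on the vertical axis; grey dots are the 11384 genes tested, open circles the 61 tested genes of the 6 other lists, and filled circles the 7 tested granule genes. Both axes use the Day 7 arrays, with opposite sign. Scg3 lies at 3.91 and -1.92, and Scg2 is the one granule gene above 0 on the vertical axis, at 0.23.

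The probesets of a gene did not all move alike. Both Day 7 arrays were above both Day 0 arrays in 70 of the 91 probesets, against 28.6% of all probesets with 1 symbol, and both Day 10 arrays were below both Day 7 arrays in 65 of 91, against 30.1%. The first count was 13 of 13 for Scg3, 14 of 14 for Pcsk2, 11 of 11 for Cpe, 14 of 15 for Chga, 8 of 10 for Chgb, 8 of 10 for Scg5, 2 of 4 for Scg2 and 0 of 14 for Pcsk1. The second was 13, 13, 10, 11, 8, 8, 0 and 2 in the same order.

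**Figure D3:**
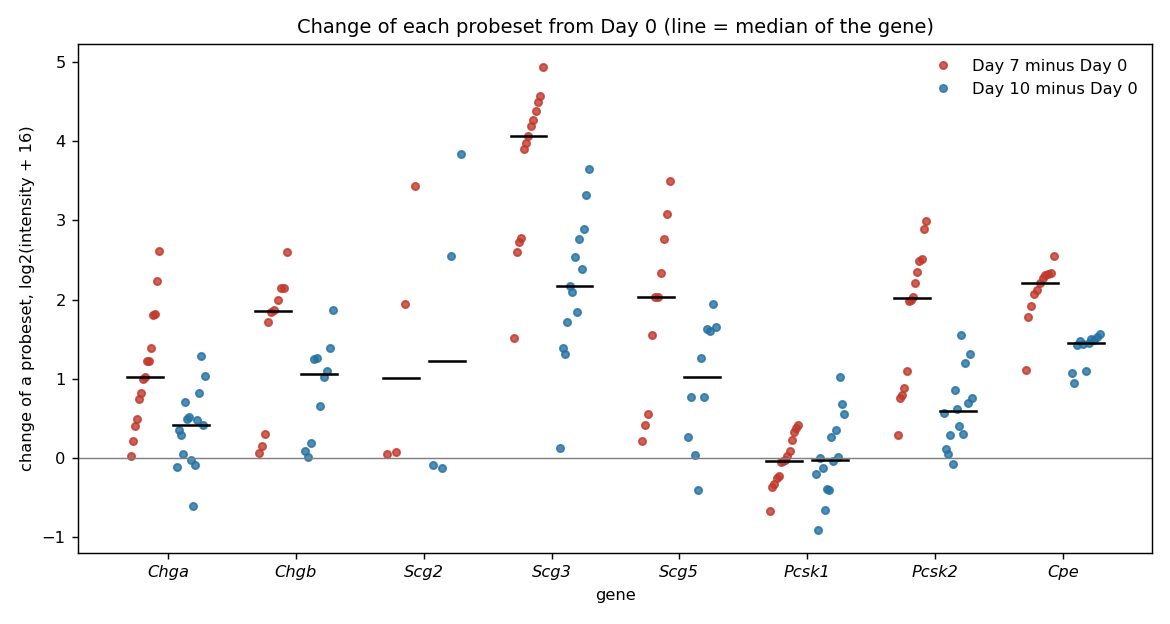
Change of each probeset from Day 0, on the log2(intensity + 16) scale, to Day 7 (red) and to Day 10 (blue), grouped by gene; points are single probesets and black lines the median of the gene's probesets. All 13 probesets of Scg3 and all 11 of Cpe rise by 1 or more up to Day 7, while the 14 of Pcsk1 scatter around 0.

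The splicing index (SI) is the log2 change of a probeset relative to its gene, and shows where 1 stretch of a transcript departs from the rest. An absolute SI of 1 or more between Day 0 and Day 7 was found in 25 of the 91 probesets, against 5% of the 161424 probesets of tested genes with at least 4 probesets. These sets differ, as the 91 include the 14 probesets of Pcsk1, a gene not tested. A probeset of low response lowers this index in a gene that rises, so the count was not read as a count of spliced exons. By gene the count was 6 for Scg5, 5 for Scg3, 4 for Chga, 3 each for Chgb, Scg2 and Pcsk2, 1 for Cpe and 0 for Pcsk1.

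Scg2 was represented by 4 probesets, of which 2 carried the rise. Probeset 4333020 had intensities of 34.4 and 57.8 on Day 0, 512 and 804 on Day 7, and 888 and 825 on Day 10. Probeset 5458583, added after its values were seen, read 26.6 and 24.3, then 116 and 178, then 288 and 178. In both of them the mean of Day 10 was above that of Day 7, whereas probeset 5140646 read 73.5 and 89.1, then 69.7 and 101, then 97.8 and 57.2, with no separation of the days. The gene level of Scg2 averages the middle pair of these 4 probesets on each array, and that pair was not the same on all days. It was 4333020 and 5458583 on both Day 0 arrays, and 5458583 and 5140646 on the arrays of Day 7 and Day 10. The change of the gene level up to Day 7 thus sets different probesets against each other. Its fold change is smaller than that of the responding pair, whose changes up to Day 7 were 3.43 and 1.95.

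Scg3 responded along its whole set. Probeset 4518826 read 15.1 and 17.9 on Day 0, 911 and 1049 on Day 7, and 458 and 336 on Day 10. Probeset 4926460 had the lowest SI among the brighter probesets of the gene, and still read 13.2 and 17.8, then 230 and 131, then 55.7 and 78.5. Days 0 and 7 were separated in both, and so were Days 7 and 10.

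Chgb and Scg5 each held probesets that stayed level. Chgb probeset 5301016 read 9.40 and 15.5 on Day 0, 146 and 167 on Day 7, and 63.9 and 118 on Day 10. Chgb probeset 5615260 read 286 and 224, then 231 and 305, then 331 and 222, with all days overlapping. Scg5 probeset 5127548 read 7.70 and 47.3, then 422 and 423, then 134 and 83.6, while Scg5 probeset 4632671 read 212 and 169, then 182 and 269, then 280 and 188.

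**Figure D4:**
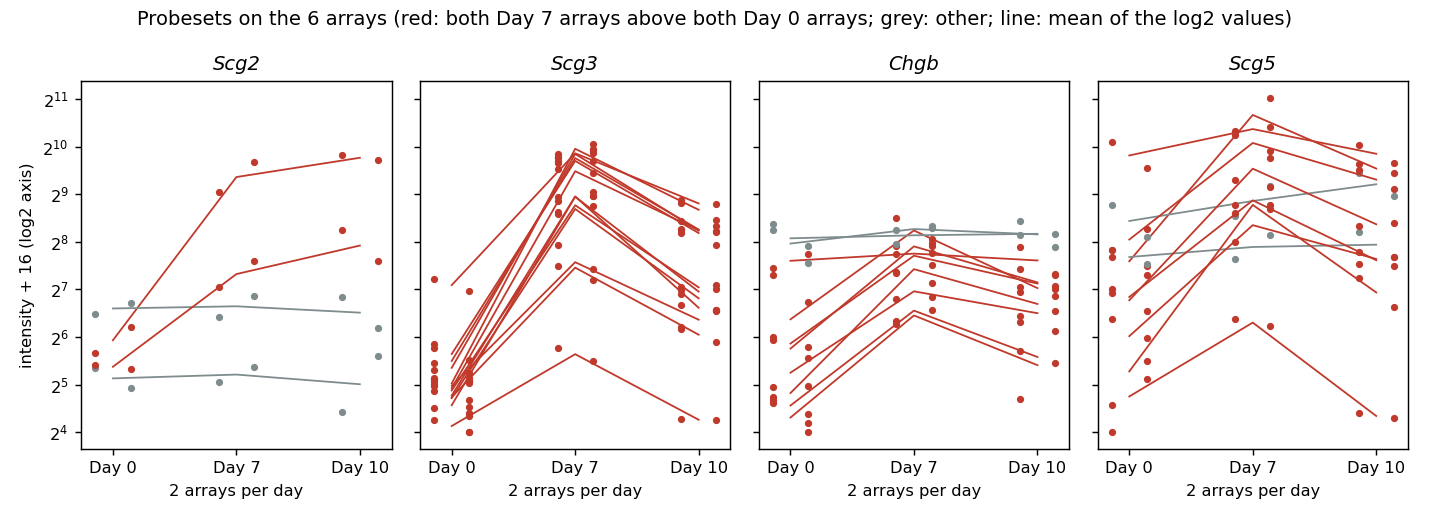
Intensity + 16 of every probeset of Scg2, Scg3, Chgb and Scg5 on the 6 arrays, on a log2 axis; points are arrays, lines join the means of the log2 values of each day, and red marks probesets with both Day 7 arrays above both Day 0 arrays. The red probesets number 2 of 4 in Scg2, 13 of 13 in Scg3, 8 of 10 in Chgb and 8 of 10 in Scg5.

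The probesets given for the enzymes and Chga, as for the genes above, are those with the highest and the lowest SI among probesets with a mean intensity over 50 on at least 1 day. Pcsk2 probeset 5508966 read 13.0 and 56.0 on Day 0, 299 and 401 on Day 7, and 41.6 and 88.1 on Day 10, and Pcsk2 probeset 4607882 read 107 and 84.9, then 132 and 109, then 204 and 108. Cpe probeset 5443927 read 153 and 274, then 1481 and 1111, then 685 and 595, and Cpe probeset 5327936 read 586 and 627, then 1897 and 2354, then 1084 and 1287. Both Cpe probesets were highest on Day 7 and intermediate on Day 10. Chga probeset 4508388 read 51.4 and 73.9, then 317 and 667, then 97.5 and 209, and Chga probeset 4848716 read 272 and 243, then 176 and 385, then 320 and 173, without separation. The Pcsk1 probesets chosen in this way did not separate the days either: 5453722 read 132 and 42.5, 134 and 75.7, and 236 and 127, and 4879131 read 431 and 305, 334 and 242, and 441 and 298.

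The likeness of profiles was measured as the root mean square distance from Scg3 over the 6 arrays, each gene centred on its own mean. Map2, which encodes a microtubule protein of dendrites, was nearest at 0.14, followed by Chl1, an adhesion molecule of the L1 family, at 0.30, Tspyl4 at 0.32, Tagln, a smooth muscle actin-binding protein, at 0.33 and Cbln1, a secreted synapse organiser, at 0.33. Map2 measured 6.86 and 6.84 on Day 0, 10.47 and 10.71 on Day 7, and 9.04 and 8.78 on Day 10. Among 11384 genes Cpe ranked 157 in this distance, Chgb 293, Pcsk2 417, Scg5 479, Chga 856 and Scg2 1020. The distance follows the size of a change as well as its shape, and the 6 arrays fall into 3 days.

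Levels of marker genes also changed between days, and the marker lists did not all move the same way. The summed intensity of 11 neuronal markers was 3242 and 2679 on Day 0, 15249 and 17797 on Day 7, and 7573 and 5526 on Day 10, and 9 of the 11 were called higher on Day 7. The sum of 9 mesenchymal and smooth muscle markers was 2123 and 2299, then 22608 and 25601, then 14744 and 23137, with 7 of 9 called higher on Day 7. The neuronal sum was highest on both Day 7 arrays, the mesenchymal sum overlapped between Day 7 and Day 10, and their part in the levels of the granule genes was not tested. The sum of 8 markers of astrocytes and radial glia was 9863 and 9772 on Day 0, 5226 and 5077 on Day 7, and 4671 and 8444 on Day 10. These markers did not move as one: on Day 7 against Day 0, 2 of the 6 tested were called higher and 2 lower, with changes from -1.92 to 4.38. Of the 6 tested, Gfap, the astrocyte filament protein, was the 1 called from Day 7 to Day 10, from 6.13 and 6.90 to 9.55 and 10.50 (0 were called lower). Of the classic endocrine sources of these granules, the sum of 7 islet genes was 355 to 520 and that of 7 chromaffin genes 489 to 843. The filter removed 6 of the islet genes, among them Ins2 and Gcg, and 4 of the chromaffin genes, among them Dbh and Pnmt. Nkx6-1, Gata3, Phox2a and Th passed it, with mean levels of 7.38, 7.59, 7.12 and 6.50.

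Other genes of the regulated secretory pathway were taken from 6 lists of 110 genes, of which 101 had probesets and 61 were tested. On Day 7 against Day 0, 9 of the 61 were called higher and 5 lower, and the median change was 0.29, where 11.2% and 4.5% of all genes were called and the median was 0.10. Of the convertases and their inhibitor, 0 of 6 passed the test (median change 0.19). Of the trimming, amidation and sulfation enzymes, 1 of 10 rose and 1 fell (median 0.30), and of the biogenesis and membrane proteins 2 of 15 rose (median 0.35). Of the exocytosis genes, 2 of 6 rose and 1 fell (median -0.02), of the peptide precursors 3 of 17 rose and 1 fell (median 0.25), and of the transcription factors 1 of 7 rose and 2 fell (median 0.15). The plot of the other genes gives the changes of those named.

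**Figure D5:**
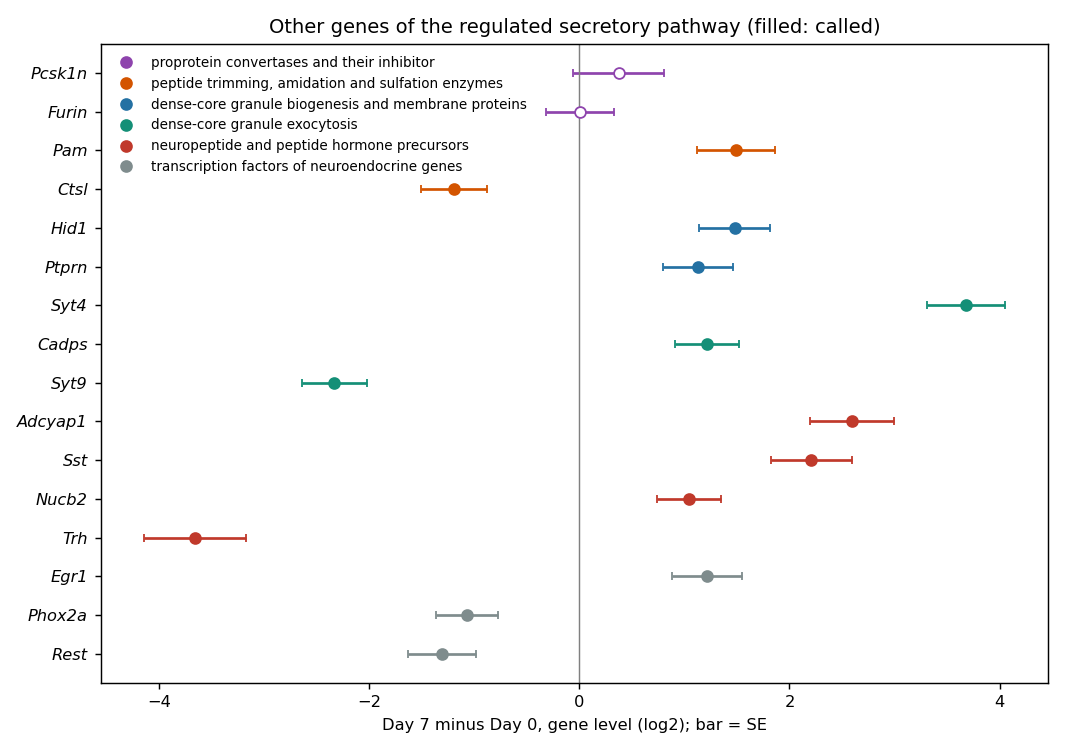
Change of gene level (log2) from Day 0 to Day 7 for the 14 called genes of the 6 other lists and for Furin and Pcsk1n, coloured by list; bars are the standard error of limma's fit and open circles are genes not called. Syt4 is highest at 3.68 and Trh lowest at -3.66.

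Furin, the ubiquitous convertase of the constitutive pathway, measured 8.54 and 8.96 on Day 0 and 8.77 and 8.75 on Day 7, a change of 0.01 (SE 0.33; limma adjusted p = 0.99). Pcsk1n encodes proSAAS, an inhibitor of PC1/3. It measured 8.24 and 8.29 on Day 0 and 8.64 ± 0.90 (SD, n = 2) on Day 7 (change 0.38, SE 0.43, limma adjusted p = 0.65). Its Day 7 arrays lay on either side of the Day 0 arrays. Pcsk5, a further convertase that was singled out after its values were seen, changed by 1.05 on Day 7 (limma adjusted p = 0.052) and was called in 9 of the 17 alternatives that tested it. It was the 1 convertase called on Day 10 against Day 0, with a change of 1.32 (limma adjusted p = 0.02).

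Pam, the enzyme that amidates peptide ends, measured 7.60 and 8.55 on Day 0 and 9.62 and 9.51 on Day 7, and rose by 1.49 (SE 0.37; limma adjusted p = 0.012). Ctsl, a lysosomal and granule protease, went the other way, from 12.10 and 12.25 to 11.09 and 10.88 (change -1.19; limma adjusted p = 0.017). Of the granule membrane and biogenesis genes, Ptprn, the granule membrane protein IA-2, rose by 1.13 (limma adjusted p = 0.032) and Hid1, a Golgi factor of granule formation, by 1.48 (limma adjusted p = 0.008). Ptprn was not called with an offset of 50 (change 0.99), after quantile normalization (0.97) or with arrays centred on the median gene (0.87).

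Syt4, a synaptotagmin of dense-core vesicles, was 6.31 and 6.08 on Day 0, 9.69 and 10.06 on Day 7, and 9.78 and 8.66 on Day 10. It rose by 3.68 (SE 0.37, 12.8-fold; limma adjusted p = 1.4e-05). Cadps, the vesicle priming factor CAPS, rose by 1.21 (limma adjusted p = 0.014). Cadps was not called with arrays centred on the median gene (change 0.95). Syt9, a calcium sensor of vesicle fusion, fell from 9.12 and 9.21 to 6.83 and 6.85 (change -2.33, SE 0.31; limma adjusted p = 0.00013). Syt7, a further synaptotagmin named after its values were seen, changed by -0.98 (limma adjusted p = 0.041). That was short of 2-fold, and Syt7 was called lower in 4 of 18 alternatives.

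Among the peptide precursors, Sst (somatostatin) was 6.41 and 6.28 on Day 0 and 7.92 and 9.19 on Day 7, a rise of 2.21 (SE 0.39; limma adjusted p = 0.0012). Adcyap1, the precursor of PACAP, was 5.26 and 5.65 and then 7.80 and 8.30, a rise of 2.59 (SE 0.40; limma adjusted p = 0.00048). Trh, the precursor of thyrotropin-releasing hormone, was 12.51 and 12.21 on Day 0, 8.31 and 9.10 on Day 7, and 9.42 and 11.28 on Day 10. Its fall up to Day 7 was the largest of the 61 genes, at -3.66 (SE 0.49; limma adjusted p = 0.00014). Nucb2, the precursor of nesfatin, rose by 1.04 (limma adjusted p = 0.032), a call kept in 8 of 18 alternatives and lost with another probeset summary, an offset of 50, another scaling of the arrays, or without any one of the Day 0 and Day 7 arrays.

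Of the transcription factors, Rest, the repressor of neuronal genes outside neurons, fell from 10.27 and 10.39 on Day 0 to 8.91 and 9.14 on Day 7 (change -1.31, SE 0.32; limma adjusted p = 0.013), and was 8.69 and 9.36 on Day 10. Phox2a fell by 1.07 (limma adjusted p = 0.024) and Egr1, an immediate early factor, rose by 1.21 (limma adjusted p = 0.023). With median polish of the probesets these changes were -0.50 and 0.84. Neither gene was called with median polish or with the mean of probesets. With arrays left out in turn, Syt4, Syt9, Sst, Adcyap1 and Trh kept their calls, and each of the other 9 called genes lost its call without at least 1 array. The number called fell to 6 when Day 7 replicate 2 was left out, to 7 for Day 0 replicate 1 and to 8 for Day 7 replicate 1.

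On Day 10 against Day 0, 7 of the 61 genes were called higher and 5 lower, where 7.27% and 7.43% of all genes were called. From Day 7 to Day 10, 0 of the 61 genes were called in limma's fit, and 11 had an unadjusted p under 0.05, as did 1927 of all 11384 genes. Without Day 10 replicate 2, 5 were called, all lower: Pcsk7, Rnpep, Npy, Adcyap1 and Crem, which were named after their values were seen. With the other Day 10 array dropped, 2 were called, Aebp1 and Trh, both higher. Over all genes, 41 were called higher and 38 lower in this comparison, against 69 and 1287 with replicate 2 dropped and 61 and 14 with replicate 1 dropped. The change of Adcyap1 was -1.25 with all arrays, -0.61 with Day 10 replicate 1 dropped and -1.88 with replicate 2 dropped, and that of Trh was 1.65, 2.58 and 0.71.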

How the data were processed

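RNA of P19 cells on 3 days was hybridised to Affymetrix Mouse Exon arrays, 2 arrays a day. The authors deposited probeset intensity values on a linear scale. According to their methods the signals were sketch-normalized and summarized with PLIER in Affymetrix Expression Console for core probesets; RMA is also named, beside Affymetrix Expression Console, in the processing notes of the submitters (no versions), and which method made the deposited intensities was not settled. Detection p-values were not used here.

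Of 228090 probesets, 208093 had 1 gene symbol, 4327 several and 15670 none; those with 1 symbol formed 16263 genes. Gene level was the median of log2(intensity + 16). Genes at or above the 30th percentile of mean level (11384) were fitted with limma 3.58.1 in R 4.3.3 (lmFit, eBayes), with the 3 days as groups and Benjamini-Hochberg adjustment over all genes tested. A call needed an adjusted p under 0.05 and 2-fold. The procedure was run on simulated gene levels with a common spread for all genes and all days. The measured arrays differed in spread between days, so that run does not show how the calls fare on them. The p-values and SEs rest on the spread between duplicates, pooled over the 3 days and drawn by eBayes towards that of all genes. They are therefore not a gene's own spread on the days compared. Each day had 2 arrays, and that number limits the precision.

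The members, gene lists and comparisons were chosen with earlier results of these data known. Named were all members, up to 5 called genes of each list with the largest change, Pcsk1n, Furin, Pam, Ptprn, Cadps and Rest, the 5 profiles nearest Scg3, and for each gene the probesets with the highest and lowest splicing index among those with a mean intensity over 50 on at least 1 day; exceptions are marked. The splicing index threshold of 1 was set after the values were seen. Alternatives were another probeset summary, offset, normalization, filter, design and moderation, and each array left out. Centring on the tested genes was added after the data were seen. The 3 pairs of days gave correlations of same-numbered deviations of -0.08, 0.33 and -0.03, so replicate numbers were not taken to pair arrays. Sequences came from RefSeq (GRCm38.p6).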

Additional observations from a re-analysis of the deposited data

How the results depend on the processing

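No called change of a granule gene reversed in any alternative, and neither did the 14 calls of the other lists on Day 7 against Day 0. Directions on Day 10 against Day 0 were checked for the granule genes only. With 7, 1 and 4 of the granule genes called on Day 7 against Day 0, Day 10 against Day 7 and Day 10 against Day 0, the filter at the 50th percentile tested 2 of them and left 2, 0 and 1 called. Median polish gave 2 on Day 10 against Day 7 (Scg3 and Pcsk2). On Day 10 against Day 0 it called Scg5 (change 1.16) in place of Chgb (0.95). On Day 7 against Day 0, Chga lost its call with arrays centred on the median gene (0.97). In that comparison Scg2 lost its call with an offset of 50 (0.93) and with centring on the tested genes (1.16). On Day 10 against Day 0, Chgb also lost its call with an offset of 50 (0.85) and with the mean of probesets (0.88). Leaving out arrays in turn gave 4 to 7, 0 to 1 and 3 to 4. Of the other lists' genes, 14 and 0 were called on Day 7 against Day 0 and Day 10 against Day 7; leaving out arrays gave 6 to 15 and 0 to 5. On Day 10 against Day 7, median polish gave 1, the mean of probesets 3, and centring on the tested genes, added after seeing the data, 1. Probesets with an absolute splicing index of 1 or more numbered 25, against 39 with an offset of 1, 15 with an offset of 50, and 19 to 28 with arrays left out.

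The replicate number as a block changed no call of the granule genes, gave 16 and 5 calls in the other lists, and raised the calls over all genes on Day 10 against Day 7 from 41 higher and 38 lower to 120 and 439. Those counts were 106 and 364 with the mean of probesets, 70 and 175 with median polish, 137 and 62 after quantile normalization, 119 and 49 with arrays centred on the median gene, 140 and 37 with centring on the tested genes, 55 and 92 with limma's trend, 62 and 146 from the arrays of the days compared alone, 50 and 110 with the higher filter and 31 and 16 with no filter. Without Day 10 replicate 2 the calls on Day 10 against Day 0 went from 828 and 846 to 697 and 2075, and without Day 0 replicate 2 to 641 and 355. On Day 7 against Day 0 the calls over all genes were 1279 and 512, and leaving out Day 0 replicate 1 gave 824 and 358, Day 7 replicate 1 gave 746 and 261 and Day 7 replicate 2 gave 750 and 260. On Day 7 against Day 0, 71.4% of the calls were higher, against 63.4% after quantile normalization, 48.6% with arrays centred on the median gene and 55.9% with centring on the tested genes. The cause of these differences was not tested. Of 312 changes of granule genes in the alternatives, 235 stayed within the spread between duplicates and 77 moved beyond it. The 235 include changes with an array of a day not compared left out, which are the same by construction, so the count overstates the stability. The change of Scg3 up to Day 7 ran from 3.00 with an offset of 50 to 4.72 with an offset of 1.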
